A study of Mus musculus with 8 samples.

Results

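Pericytes and smooth muscle cells, together called mural cells, wrap the outside of blood vessels, pericytes on capillaries and small venules and smooth muscle cells on arteries and larger veins. Endothelial cells recruit pericytes with the growth factor PDGF-B, which acts on the receptor PDGFRB, and signal to smooth muscle through Notch ligands that act on NOTCH3. Smooth muscle also forms the muscle layers of the colon wall, where serum response factor (SRF) and its coactivator myocardin switch on contractile genes through a promoter motif called the CArG box. The 10 genes described here are 5 genes widely used as pericyte markers (Pdgfrb, Cspg4, Rgs5, Notch3 and Mcam) and 5 genes of smooth muscle (Acta2, Myh11, Tagln, Cnn1 and Des). They were chosen by name, as markers of these cells, and not by a threshold on a measurement. Each was taken at its brightest probe set with exactly 1 gene symbol, and all 10 were found among the 22180 genes measured.

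The arrays held RNA of cells sorted from mouse colon as CD31-positive, CD45-negative and CD11b-negative, so mural cells were not what the sort aimed at. In the allogeneic group (n = 4), female C57BL/6 recipients had been given marrow and T cells of LP/J donors, whose T cells can attack the recipient in graft-versus-host disease. In the syngeneic group (n = 4), female C57BL/6 recipients had been given marrow and T cells of C57BL/6 donors. All recipients of both groups had received busulfan and cyclophosphamide for 5 days beforehand, and colon was taken at day 2 after transplantation. The age of the mice was not given in the sources used here, and the labels call the arrays of a group biological replicates.

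Values are log2 signals after RMA normalization, and 1 unit is a 2-fold difference of signal. Pecam1, which encodes CD31, lay between 9.76 and 10.46 on allogeneic and between 9.80 and 11.58 on syngeneic arrays. Cdh5, which encodes the endothelial junction protein VE-cadherin, lay between 9.20 and 10.04 on allogeneic and between 9.44 and 11.37 on syngeneic arrays. Epithelial genes were bright too, and the mean of the 12 epithelial markers lay between 10.89 and 10.95 on allogeneic and between 10.35 and 10.95 on syngeneic arrays. Ptprc and Itgam, which encode the excluded CD45 and CD11b, averaged 5.20 and 5.34 over the 8 arrays. Y-linked genes, a guide to background in these female recipients, reached at most 3.18, so both endothelial markers of the labelled cell type were far above background on every array. Syngeneic arrays 3 and 4 stood apart from the other 6 arrays, with the highest Pecam1 (10.95 and 11.58) and Cdh5 (10.60 and 11.37) and the lowest epithelial means (10.61 and 10.35). The main results on the mural cell genes are also given below without them, and those on the other gene lists are not. The part of these shifts in the mural cell values was not tested.

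None of the 10 mural cell genes passed the test between allogeneic and syngeneic arrays. At an adjusted p below 0.05 in limma, 0.469% of all genes passed, 0.356% higher and 0.113% lower in the allogeneic group, against 0 of the 5 pericyte and 0 of the 5 smooth muscle genes. Pdgfrb and Des, 2 of the 10, had unadjusted p-values under 0.05, both with lower allogeneic means. Of all genes 13.2% had such a p-value and 5.43% had one with a lower allogeneic mean. The 2 groups overlapped for all 10 genes, while 8.55% of all genes had groups that did not overlap. The log2 change, allogeneic minus syngeneic, was negative for 9 of the 10 genes and for 51% of all genes. The median change was -0.53 over the 5 pericyte genes and -0.28 over the 5 smooth muscle genes, against -0.01 over all genes. Without syngeneic arrays 3 and 4 these medians were -0.03 and 0.03, 6 of the 10 changes were positive and the 10 ran from -0.24 to 0.40. In a sample of many cells, fewer mural cells and less of a transcript per mural cell cannot be told apart.

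Among the pericyte genes, Pdgfrb encodes the PDGF receptor that keeps pericytes on the vessel. Its signals were 7.96, 7.85, 7.53 and 7.97 on allogeneic arrays 1 to 4, against 8.10, 7.84, 8.46 and 9.02 on syngeneic arrays 1 to 4. Syngeneic arrays 1 and 2 were near the allogeneic arrays and syngeneic arrays 3 and 4 were above them. The means were 7.83 ± 0.20 on allogeneic and 8.35 ± 0.51 on syngeneic arrays (SD, n = 4 each) and the change was -0.53 ± 0.23 (SE, limma adjusted p = 0.365). The change was -0.14 without syngeneic arrays 3 and 4.

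Notch3 encodes the Notch receptor of mural cells. It had signals of 6.33, 6.80, 5.43 and 6.62 on the allogeneic arrays, against 6.76, 6.32, 7.62 and 7.13 on the syngeneic arrays. Allogeneic array 3 was the lowest of the 8, syngeneic arrays 3 and 4 were the highest, and the other arrays of both groups were mixed. This was the most negative change of the 10 genes, -0.66 ± 0.33 (SE, limma adjusted p = 0.429), from means of 6.30 ± 0.61 on allogeneic and 6.96 ± 0.55 on syngeneic arrays (SD, n = 4 each). It was -0.24 without syngeneic arrays 3 and 4.

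Mcam encodes the adhesion molecule CD146, which is carried by mural cells and by endothelial cells themselves. Its signals were 8.34, 8.44, 8.51 and 8.74 on the allogeneic arrays, against 8.23, 8.26, 9.65 and 10.21 on the syngeneic arrays. The 4 allogeneic arrays lay close together, between the lower and the upper pair of syngeneic arrays. Its standard deviation was 0.17 among allogeneic and 1.00 among syngeneic arrays (n = 4 each), the widest syngeneic spread of the 10 genes. The change of -0.58 ± 0.39 (SE, limma adjusted p = 0.580) became 0.26 without syngeneic arrays 3 and 4.

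Rgs5 encodes a regulator of G protein signalling that is abundant in pericytes. It had signals of 8.51, 7.98, 8.20 and 9.14 on the allogeneic arrays, against 8.44, 8.01, 9.17 and 9.41 on the syngeneic arrays. Allogeneic array 4 reached the level of the upper pair of syngeneic arrays, and the other 3 allogeneic arrays lay beside the lower pair. The change was -0.30 ± 0.32 (SE, limma adjusted p = 0.752), and a second, dimmer Rgs5 probe set had a change of -0.39. Without syngeneic arrays 3 and 4 the change of the brighter probe set was 0.23.

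Cspg4 encodes the proteoglycan NG2 of the pericyte surface and had the narrowest range over the 8 arrays. Its signals were 5.79, 5.79, 5.52 and 6.05 on the allogeneic arrays, against 5.85, 5.78, 6.00 and 5.99 on the syngeneic arrays. The highest and the lowest of the 8 arrays were both allogeneic. The change was -0.12 ± 0.15 (SE, limma adjusted p = 0.778), with a 95% interval from -0.45 to 0.20, and -0.03 without syngeneic arrays 3 and 4.

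**Figure D1:**
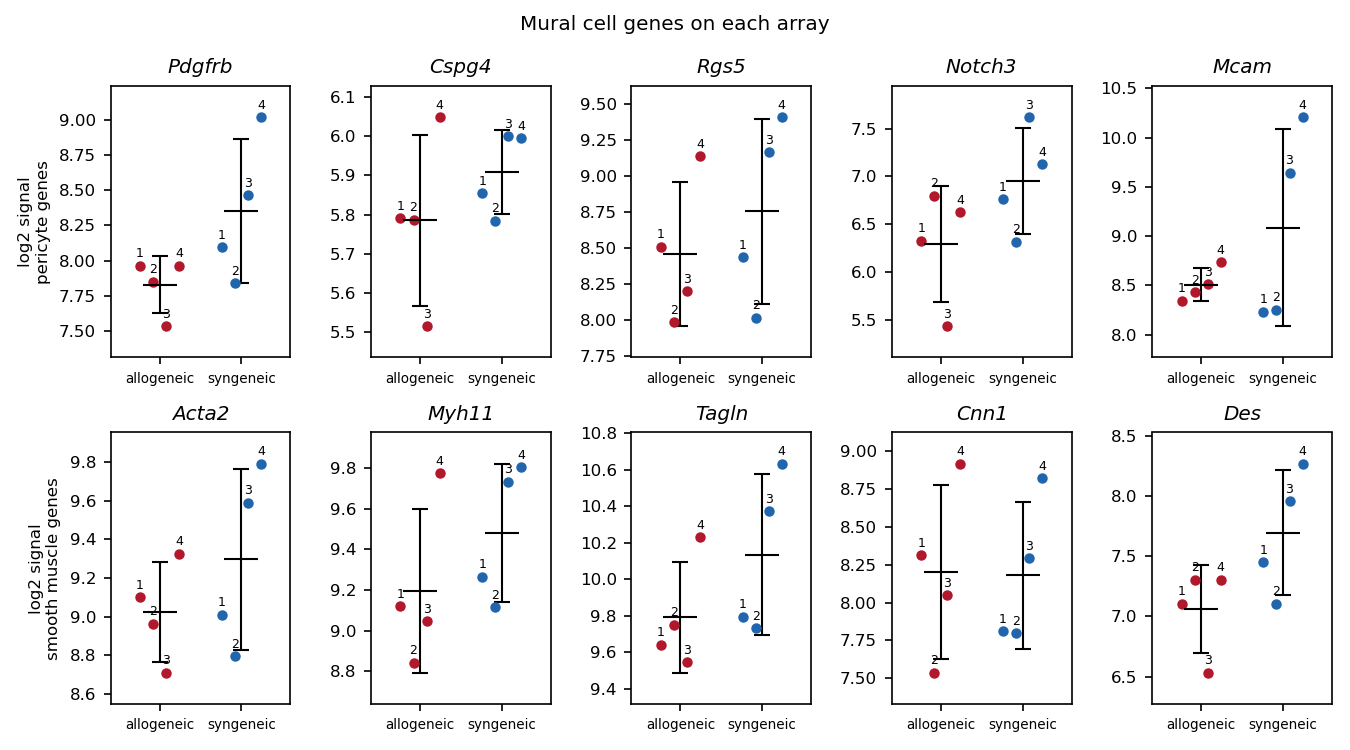
Log2 signal of each gene on each array, with pericyte genes above and smooth muscle genes below. Points are arrays, numbered by replicate, and bars give the mean and SD of 4 arrays. The vertical scale differs between panels and does not start at 0. In all 10 panels syngeneic arrays 3 and 4 lie above syngeneic arrays 1 and 2.

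Among the smooth muscle genes, Acta2 encodes smooth muscle alpha actin, the thin filament of the contractile apparatus, and is also made by activated pericytes and myofibroblasts. It had signals of 9.10, 8.96, 8.71 and 9.33 on the allogeneic arrays, against 9.01, 8.80, 9.59 and 9.79 on the syngeneic arrays. Syngeneic arrays 1 and 2 were within the allogeneic range and syngeneic arrays 3 and 4 above it. The means were 9.03 ± 0.26 on allogeneic and 9.30 ± 0.47 on syngeneic arrays (SD, n = 4 each) and the change was -0.27 ± 0.22 (SE, limma adjusted p = 0.658). It was 0.12 without syngeneic arrays 3 and 4.

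Myh11 encodes the smooth muscle myosin heavy chain, the motor of contraction. Its signals were 9.12, 8.84, 9.05 and 9.78 on the allogeneic arrays, against 9.27, 9.12, 9.73 and 9.81 on the syngeneic arrays. Allogeneic array 4 lay between syngeneic arrays 3 and 4, and the other 3 allogeneic arrays were below syngeneic arrays 1, 3 and 4. The change was -0.28 ± 0.22 (SE, limma adjusted p = 0.633), and 0.01 without syngeneic arrays 3 and 4.

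Tagln encodes transgelin (SM22 alpha), an actin-binding protein of smooth muscle. It had signals of 9.64, 9.75, 9.55 and 10.23 on the allogeneic arrays, against 9.79, 9.73, 10.37 and 10.63 on the syngeneic arrays. Syngeneic arrays 3 and 4 were the highest, followed by allogeneic array 4, and the other 5 arrays lay close together. The change was -0.34 ± 0.22 (SE, limma adjusted p = 0.545), and 0.03 without syngeneic arrays 3 and 4.

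Cnn1 encodes calponin, which restrains the actin-activated myosin ATPase. It had signals of 8.31, 7.54, 8.05 and 8.91 on the allogeneic arrays, against 7.81, 7.80, 8.29 and 8.82 on the syngeneic arrays. The highest and the lowest array were both allogeneic, and the group means were nearly equal, 8.20 ± 0.57 on allogeneic and 8.18 ± 0.49 on syngeneic arrays (SD, n = 4 each). The change was 0.02 ± 0.30 (SE, limma adjusted p = 0.985), with a 95% interval from -0.64 to 0.69. It was 0.40 without syngeneic arrays 3 and 4 and -0.21 without allogeneic array 4.

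Des encodes desmin, the intermediate filament of muscle and of many pericytes. Its signals were 7.11, 7.30, 6.53 and 7.30 on the allogeneic arrays, against 7.45, 7.10, 7.96 and 8.27 on the syngeneic arrays. Syngeneic array 2 lay within the allogeneic range and the other 3 syngeneic arrays lay above it. The change was -0.63 ± 0.26 (SE, limma adjusted p = 0.333, the smallest of the 10 genes), from means of 7.06 ± 0.36 on allogeneic and 7.69 ± 0.52 on syngeneic arrays (SD, n = 4 each). It was -0.22 without syngeneic arrays 3 and 4.

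The same arrays were high for both classes. Syngeneic arrays 3 and 4 both lay above syngeneic arrays 1 and 2 for 10 of the 10 genes, an order that 18.4% of all genes showed. Syngeneic array 4 was the highest of the 8 arrays for 7 of the 10, against 15.6% of all genes. Within the allogeneic group, array 4 was the highest for 9 of the 10, all but Notch3, against 27.3% of all genes. The array means of the 5 pericyte genes were 7.39, 7.37, 7.04 and 7.70 on allogeneic arrays 1 to 4, against 7.48, 7.24, 8.18 and 8.35 on syngeneic arrays 1 to 4. Those of the 5 smooth muscle genes were 8.66, 8.48, 8.38 and 9.11 on the allogeneic arrays, against 8.67, 8.51, 9.19 and 9.46 on the syngeneic arrays. Both means were lowest on allogeneic array 3 and highest on syngeneic array 4.

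Pairs of the 10 genes varied together over the 8 arrays, which is given here as a description because all pairs share the same arrays. Among the 10 pericyte pairs Pearson r had a median of 0.77 and ran from 0.57 (Cspg4 and Mcam) to 0.88 (Pdgfrb and Mcam). Among the 10 smooth muscle pairs the median was 0.86, from 0.42 (Cnn1 and Des) to 0.95 (Acta2 and Tagln). The 25 pairs of a pericyte with a smooth muscle gene had a median of 0.82, between the medians within the 2 classes. The closest of these was Rgs5 with Myh11 (0.96) and the loosest Notch3 with Cnn1 (0.23). With deviations from each group's mean in place of the values, the medians were 0.71, 0.86 and 0.80. Without syngeneic arrays 3 and 4 they were 0.53, 0.68 and 0.63.

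**Figure D2:**
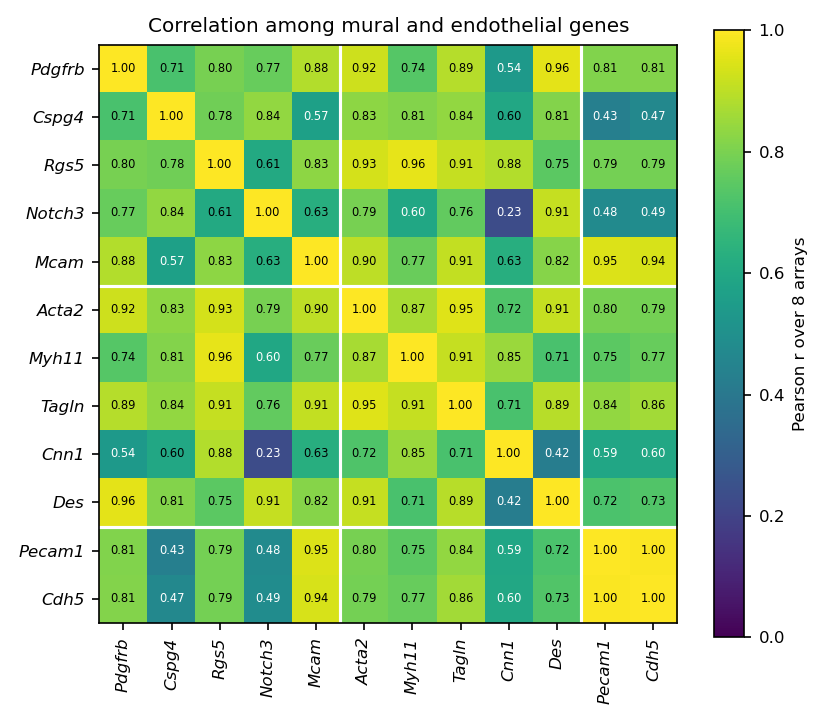
Pearson r over the 8 arrays for each pair among the 5 pericyte genes, the 5 smooth muscle genes, Pecam1 and Cdh5, with white lines between the 3 sets. The colour runs from 0 to 1. Rgs5 and Myh11 (0.96) lie among the brightest cells outside the diagonal, and Notch3 and Cnn1 (0.23) give the darkest.

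The genes whose arrays followed the 2 means most closely were sought among 11080 other genes whose mean signal was above that of the median gene. For the pericyte mean they were Orai3 (r = 0.974 over 8 arrays), Tbc1d8 (0.972), Tubb6 (0.969), Kctd17 (0.968) and Ephx3 (0.966). For the smooth muscle mean they were Tpm2 (0.983), Ephx3 (0.982), Hrct1 (0.973), Cald1 (0.973) and Fam20a (0.972). Tpm2 and Cald1 encode tropomyosin 2 and caldesmon, which regulate the thin filament, and both stand in the list of other smooth muscle genes described below.

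The next question was whether the mural cell genes followed the endothelial genes from array to array. With Pecam1, r was positive for all 10 genes and at least 0.7 for 7 of them, against 6.94% of all genes. It was highest for Mcam, at 0.95 (exact permutation p = 0.00208, 0.145 adjusted over all genes), followed by Tagln at 0.84 (exact permutation p = 0.0105, 0.226 adjusted). Spearman's rho was 0.81 for Mcam (exact permutation p = 0.0218, 0.554 adjusted) and 0.64 for Tagln (exact permutation p = 0.0962, 0.697 adjusted). Pdgfrb had r = 0.81, Acta2 0.80, Rgs5 0.79, Myh11 0.75 and Des 0.72. Cnn1 (0.59), Notch3 (0.48) and Cspg4 (0.43) were looser. With Cdh5 the order was nearly the same, from 0.94 for Mcam to 0.47 for Cspg4, and 7.01% of all genes reached 0.7.

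No gene of all tested passed for Pecam1 or for Cdh5 by exact permutation with adjustment over all genes (0.0% called). At an unadjusted p below 0.05, 7 of the 10 genes had a positive r with Pecam1 and 7 with Cdh5, against 6.6% and 6.67% of all genes. The relation with Pecam1 rested on syngeneic arrays 3 and 4, which were the 2 arrays farthest from its median. Without them r was positive for 5 of the 10, at 0.60 for Mcam, 0.41 for Myh11, 0.38 for Rgs5, 0.34 for Cnn1 and 0.24 for Tagln. It was -0.37 for Pdgfrb, -0.01 for Acta2, -0.36 for Des, -0.40 for Notch3 and -0.15 for Cspg4. For Cdh5 the 2 farthest arrays were allogeneic array 1 and syngeneic array 4, and without these r stayed positive for all 10 genes, at 0.89 for Mcam, 0.82 for Rgs5 and 0.34 for Cspg4. Without syngeneic arrays 3 and 4, however, r with Cdh5 was -0.28 for Pdgfrb, -0.28 for Notch3, -0.23 for Des and -0.00173 for Cspg4. It stayed positive for Mcam (0.59), Myh11 (0.50), Rgs5 (0.41), Tagln (0.38), Cnn1 (0.35) and Acta2 (0.04). Pecam1 and Cdh5 themselves had r = 0.995 over the 8 arrays. A group of 4 arrays is too small for r within a group.

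**Figure D3:**
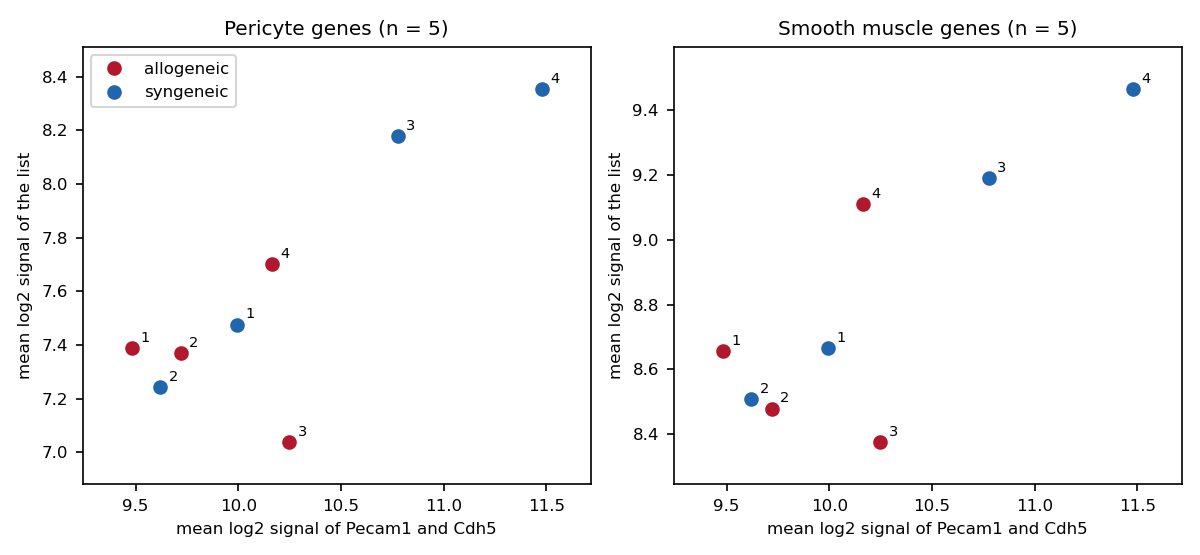
Mean log2 signal of the 5 pericyte genes (left) and of the 5 smooth muscle genes (right) on each array against the mean of Pecam1 and Cdh5, with arrays numbered by replicate. Syngeneic arrays 3 and 4 lie at the upper right in both panels (8.18 and 8.35 for pericyte genes), and allogeneic array 3 is the lowest in both.

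Each array's mean of Pecam1 and Cdh5 was then subtracted, so that a gene's change is read relative to endothelial signal. That mean was 9.90 ± 0.36 on allogeneic and 10.47 ± 0.83 on syngeneic arrays (SD, n = 4 each), and the subtraction moved the median change of all genes from -0.01 to 0.56. On this scale the median change was 0.04 over the pericyte genes and 0.28 over the smooth muscle genes, both below the 0.56 of all genes. The subtraction shifts the change of every gene by the same amount, so this order repeats that of the signals and is no further result. The changes ran from -0.10 for Notch3 to 0.59 for Cnn1. Those of Mcam (-0.02), Pdgfrb (0.04) and Des (-0.07) were the nearest to 0, so that their group means differed about as much as those of the endothelial genes.

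Cnn1 relative to that mean was -1.17, -2.18, -2.20 and -1.25 on the allogeneic arrays, against -2.18, -1.82, -2.48 and -2.66 on the syngeneic arrays. Allogeneic arrays 1 and 4 lay above all the others, and allogeneic arrays 2 and 3 lay among the syngeneic ones. Allogeneic array 1, which had the lowest Pecam1 and Cdh5 of the 8, was the highest array for 8 of the 10 genes on this scale. Syngeneic array 4, which had the highest Pecam1 and Cdh5, was the lowest for 6 of the 10, and allogeneic array 3 was the lowest for 3. The subtraction itself raises arrays with low Pecam1 and Cdh5 and lowers arrays with high Pecam1 and Cdh5. Shares over all genes were not counted for these orders, so they cannot be read as a trait of the mural cell genes.

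None of the 10 genes passed on this scale, where limma called 0.207% of all genes, and 0.00902% as lower. None had an unadjusted p under 0.05 either, against 5.95% of all genes and 0.0947% with a lower allogeneic mean. Limma took the variance here from the trend with signal level alone, so the SEs of these changes, 0.51 to 0.52, do not reflect each gene's own spread. By two-sided exact permutation over the 70 splits of the 8 arrays, p ran from 0.171 for Cnn1 to 0.914 for Mcam and Des, where 0.0286 is the smallest possible. The 95% interval of Acta2 reached from -0.72 to 1.30, which leaves room for a sizeable difference of either sign. Without syngeneic arrays 3 and 4 the relative changes ran from -0.34 for Notch3 to 0.30 for Cnn1.

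**Figure D4:**
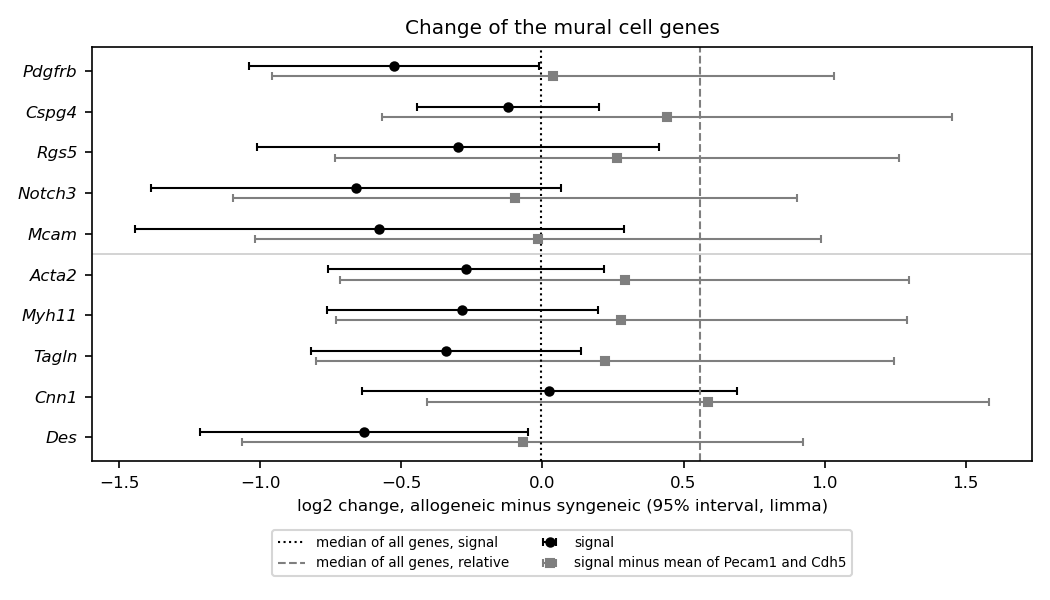
Log2 change, allogeneic minus syngeneic, of each gene with its 95% interval from limma, as signal (black circles) and after subtraction of each array's mean of Pecam1 and Cdh5 (grey squares). Vertical lines mark the median of all genes on each scale, -0.01 and 0.56. Intervals of the signal include 0 except for Pdgfrb and Des, before adjustment.

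Other genes of the 2 cell types were read from lists chosen by cell type knowledge. Of 19 other pericyte genes measured none passed in either direction, 14 had a negative change and the median was -0.10. Array means of this list ran from 5.52 to 5.93 on allogeneic arrays. They were 5.58 and 5.67 on syngeneic arrays 1 and 2, against 5.98 and 6.18 on syngeneic arrays 3 and 4. The smallest p-values belonged to Ndufa4l2 (-0.38, limma adjusted p = 0.271), Vtn, which encodes vitronectin (-0.48), Higd1b (-0.38) and the sphingosine phosphate receptor gene S1pr3 (-0.67). Also named for their roles, after values were seen, are Kcnj8 and Abcc9. They encode subunits of the potassium channel of pericytes and had changes of -0.26 and -0.01. Groups did not overlap for 2 of the 19, Ndufa4l2 and Vtn, both lower in the allogeneic group, against 3.36% of all genes. Ndufa4l2 was dim, at 3.89 to 4.07 on allogeneic and 4.10 to 4.57 on syngeneic arrays, where the median gene averaged 5.33.

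Of 25 other smooth muscle genes none passed, 23 had a negative change and the median was -0.18. The array means of these genes lay between 6.81 and 7.26 on allogeneic arrays. Syngeneic arrays 1 and 2, at 7.01 and 6.89, lay within that range, and syngeneic arrays 3 and 4, at 7.28 and 7.56, above it. The smallest p-value was that of Hspb6, a small heat shock protein of muscle, and it was 1 of the 25 whose groups did not overlap, near the 3.36% of all genes that were lower with no overlap. It had 6.38, 6.37, 6.39 and 6.39 on the allogeneic arrays, against 6.88, 6.86, 7.06 and 6.97 on the syngeneic arrays. All 4 allogeneic arrays lay between 6.37 and 6.39 and below every syngeneic array. Its change was -0.56 ± 0.12 (SE, limma adjusted p = 0.0764). Srf (-0.25), the myosin light chain kinase gene Mylk (-0.39) and the smoothelin gene Smtn (-0.33) followed. The change was -0.41 for Myocd, the gene of myocardin, and -0.09 for Actg2, the actin of gut wall muscle, which were named for their roles.

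Of 21 genes by which endothelial and mural cells signal to each other none passed, 18 had a negative change and the median was -0.33. Their array means lay between 6.59 and 7.06 on allogeneic arrays. On syngeneic arrays 1 and 2 they were 6.79 and 6.65, and on syngeneic arrays 3 and 4 they were 7.28 and 7.90. The change was -0.56 for Pdgfb, the gene of the PDGFRB ligand, and -0.06 and 0.09 for the Notch ligand genes Jag1 and Dll4, which were named for their roles. Eng, a TGF-beta coreceptor of endothelium, had the most negative change (-1.43, limma adjusted p = 0.158). S1pr1 (-0.76), Hbegf (-0.30) and Tek (-0.78) followed by p. The median over the 15 endothelial markers was -0.66, all 15 were negative and none passed. Array means of these markers lay between 7.84 and 8.57 on allogeneic arrays. Syngeneic arrays 1 and 2, at 8.49 and 8.20, lay within that range, and syngeneic arrays 3 and 4, at 9.26 and 10.08, above it.

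Fibroblasts and interstitial cells are the other stromal cells that a colon digest could hold. Of the 11 fibroblast markers none passed, 8 had a positive change and the median was 0.25. Dpt, the gene of dermatopontin, had signals of 9.99, 9.997, 10.43 and 10.88 on the allogeneic arrays, against 9.18, 9.21, 9.81 and 9.30 on the syngeneic arrays. Its groups did not overlap, which held for 1 of the 11 markers against 5.18% of all genes, and the change was 0.94 ± 0.21 (SE, limma adjusted p = 0.0869). Lum (0.83), Pdgfra (1.03) and Dcn (0.51) followed. Array means of the fibroblast list ran from 7.55 to 8.51 on allogeneic and from 7.11 to 7.92 on syngeneic arrays. They were highest on allogeneic array 4, which was also the highest allogeneic array for 9 of the 10 mural cell genes, and lowest on syngeneic array 4, where 7 of the 10 mural cell genes were highest.

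Kit and Ano1, which mark the interstitial pacemaker cells of the gut muscle but are also made by other cells, had changes of 0.68 and 0.85 (limma adjusted p = 0.112 and 0.138). The groups did not overlap for either gene, against 5.18% of all genes that were higher with no overlap, and the 6 measured genes of glia and interstitial cells had a median change of 0.04. Of the 12 epithelial markers none passed, 11 had a positive change and the median was 0.18. Their array means were 10.89 and 10.95 on syngeneic arrays 1 and 2, beside 10.89 to 10.95 on the allogeneic arrays. On syngeneic arrays 3 and 4 they were 10.61 and 10.35. Groups did not overlap for 3 of the 12, Epcam, Krt18 and Lgals4, all higher in the allogeneic group, against 5.18% of all genes. Among 11 leukocyte markers S100a8 was lower on allogeneic arrays (limma adjusted p = 0.00424), where 0.113% of all genes were called lower, and the other 10 did not pass. Groups did not overlap for 2 of the 11, S100a8 and S100a9 (-0.83, limma adjusted p = 0.0590), both lower in the allogeneic group, against 3.36% of all genes. S100a8 lay between 2.59 and 3.41 on allogeneic arrays, about the level of the Y-linked genes, and between 4.75 and 5.25 on syngeneic arrays, so the size of its change is only a bound. The part of these other cells in the mural cell values was not tested.

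**Figure D5:**
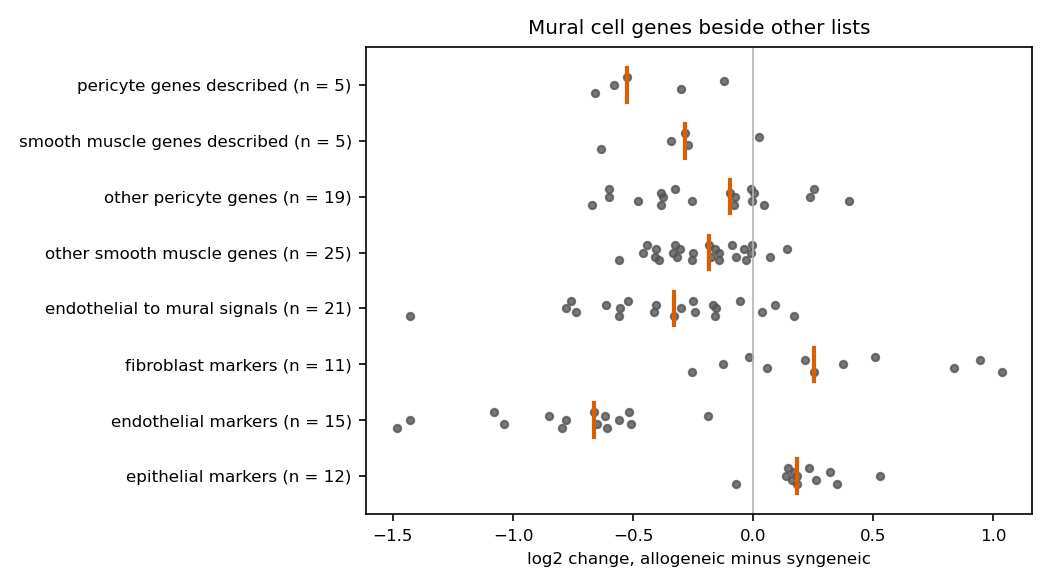
Log2 change, allogeneic minus syngeneic, of each gene (points) in the 2 sets described here and in 6 other lists, with orange bars at the medians. Medians are -0.53 for pericyte genes, -0.28 for smooth muscle genes, 0.25 for fibroblast markers and -0.66 for endothelial markers.

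Since smooth muscle genes are controlled through CArG boxes, promoters were read for them in RefSeq sequence of build GRCm38.p6. Each ran from 250 bases before to 50 after a listed start site of the gene. For Acta2 that site lay inside the gene's span, chr19:34240336-34255585, and not at its outer end. The strict motif is CC, then 6 letters that are each A or T, then GG, and its form is the same on both strands. Promoters were at hand for 7 of the 10 genes, which leaves out Pdgfrb, Myh11 and Tagln. None of the 7 held the strict motif, and 1.63% of all 32851 promoters did. With 1 G or C allowed among the 6 middle letters, a form chosen after the sequences were seen, Acta2 held 2 matches and the other 6 promoters none, against 9.98% of all promoters. Among the other smooth muscle genes 5 of 29 promoters held the strict motif, in genes that include Srf, Myl9 and Vcl. The Acta2 promoter is shown for its 2 matches, in capitals, at chr19:34255448-34255457 and chr19:34255398-34255407 on the minus strand, and that of Rgs5 as a pericyte gene without one. Windows around strict matches in Srf (chr17:46556225-46556254, minus strand), Myl9 (chr2:156775293-156775322, plus strand) and Vcl (chr14:20929161-20929190, plus strand) are given for comparison, with the motif in capitals. A match is a resemblance of letters and says nothing about binding in these cells.
Acta2, chr19:34255324-34255623, minus strand: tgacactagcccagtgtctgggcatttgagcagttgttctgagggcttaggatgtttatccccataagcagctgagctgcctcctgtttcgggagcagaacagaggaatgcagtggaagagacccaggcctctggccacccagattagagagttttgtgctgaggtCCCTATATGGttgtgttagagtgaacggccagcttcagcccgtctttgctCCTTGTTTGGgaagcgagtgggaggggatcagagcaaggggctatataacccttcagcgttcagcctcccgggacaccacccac
Rgs5, chr1:169655251-169655550, plus strand: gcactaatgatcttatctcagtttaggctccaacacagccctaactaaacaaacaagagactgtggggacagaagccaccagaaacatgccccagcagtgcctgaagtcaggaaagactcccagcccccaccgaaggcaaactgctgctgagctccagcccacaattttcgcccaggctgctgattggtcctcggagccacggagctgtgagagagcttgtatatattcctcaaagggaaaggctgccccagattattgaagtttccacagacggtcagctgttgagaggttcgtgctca
Srf: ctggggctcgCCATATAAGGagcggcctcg
Myl9: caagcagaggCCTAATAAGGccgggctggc
Vcl: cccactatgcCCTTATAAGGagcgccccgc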

How the data were processed

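RNA of sorted colon cells was measured on 8 Affymetrix Mouse Gene 2.0 arrays, 4 allogeneic and 4 syngeneic. The deposited values are log2 signals that the authors made with RMA in Affymetrix Expression Console 1.4.1, per the submitters' processing notes, after labelling of picogram amounts of RNA, per the labels' protocols. RMA quantile-normalizes the arrays, so a shift shared by most genes is removed, and array medians lay between 4.68 and 4.79. The number of arrays limits the precision, and no detection call was given.

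Of 41345 probe sets, 23521 had exactly 1 gene symbol in the platform annotation, 1814 had several and 16010 none. A gene was read from its brightest single-symbol probe set, which gave 22180 genes, 1082 of them with more than 1 such probe set. The groups were compared over all genes with limma 3.58.1 (R 4.3.3, empirical Bayes with an intensity trend) with Benjamini-Hochberg adjustment and a threshold of 0.05. The same fit was run after subtracting each array's mean of Pecam1 and Cdh5, over 22178 genes. Exact permutation covered all 70 splits of the arrays, or all 40320 orders for a correlation. Changes are allogeneic minus syngeneic.

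The 10 genes and the gene lists were chosen with earlier results of these data known. Named genes are the 10, Pecam1, Cdh5, Ptprc and Itgam, up to 4 genes of each other list with the smallest limma p, and the 5 genes most correlated with each class mean. Kcnj8, Abcc9, Myocd, Actg2, Pdgfb, Jag1 and Dll4 were added for their roles after values were seen. Alternatives covered the intensity trend, dim genes, centring, array weights, probe set means, a replicate block, covariates and arrays left out. On simulated data for the group comparison, 200 of 22180 genes were changed, all brighter than the median gene, with independent normal noise. The fit called 18.7% of 1.5-fold, 66% of 2-fold, 85.3% of 3-fold and 95.3% of 4-fold changes, and 4.1% of its calls were false. Shifts shared by many genes, as on syngeneic arrays 3 and 4, were not simulated, so these rates need not hold for the real arrays.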

Additional observations from a re-analysis of the deposited data

Results flagged for a closer look

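Among 156 groups of 4 arrays searched, 5 held an array that stood far from the other 3, a share below the about 1 in 20 that chance gives. Vtn was 5.29 on allogeneic array 3, with the other allogeneic arrays between 5.99 and 6.11. Orai3, the gene most like the pericyte mean, was 6.29 on allogeneic array 3, with the others between 6.51 and 6.55. It was picked for following that mean, which is itself lowest on allogeneic array 3. Relative to the mean of Pecam1 and Cdh5, Tagln was -0.70 on allogeneic array 3, against 0.03 to 0.16 on the other allogeneic arrays. On the same scale syngeneic array 4 stood apart for Rgs5 at -2.07, with the other syngeneic arrays between -1.61 and -1.56, and for Notch3 at -4.35, with the others between -3.30 and -3.16. Syngeneic array 4 also had the highest subtracted mean, which lowers every gene on that scale.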

How the results depend on the processing

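None of the 10 genes passed under any alternative run, on either scale (lowest limma adjusted p = 0.156 as signal and 0.120 relative to Pecam1 and Cdh5). The 0.120 came from array weights, whose estimate did not converge. Among the other runs the lowest on that scale was 0.193 (limma adjusted p), without syngeneic array 2. The count of all genes called was 104. It was 193 with dim genes left out, 305 at an adjusted p below 0.1, 38 without both syngeneic arrays 3 and 4, 35 with the epithelial mean as covariate, 24 with the endothelial mean and 8 to 180 with 1 array left out. Every single array moved it by over 1.5 times except syngeneic array 4 (126): it was 9, 19, 45 and 21 without allogeneic arrays 1 to 4, and 31, 180 and 8 without syngeneic arrays 1 to 3. With the replicate number as a block it was 68. Deviations of same-numbered arrays correlated at 0.05, 0.05, -0.10 and 0.10, and array 1 of the allogeneic group was closer to syngeneic array 2 (0.12). Whether same-numbered arrays belong together cannot be told from these values. The block left all 10 genes uncalled (limma adjusted p from 0.310 to 0.973).

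Without syngeneic arrays 3 and 4, with the epithelial covariate and with the endothelial covariate, the pericyte median was -0.0343, -0.0591 and -0.0494 and the smooth muscle median 0.03, -0.02 and 0.05. Leaving out 1 array gave -0.70 to -0.20 and -0.48 to -0.17. Changes of signal turned positive without those 2 arrays (Rgs5 0.23, Mcam 0.26, Acta2 0.12, Myh11 0.00639, Tagln 0.0289), with the epithelial covariate (Rgs5 0.16, Mcam 0.17, Acta2 0.0710) and with the endothelial covariate (Rgs5 0.26, Mcam 0.22, Acta2 0.0761, Myh11 0.0511, Tagln 0.0339). Cnn1 ran from -0.21 to 0.25 with 1 array left out.

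Relative to Pecam1 and Cdh5, signs turned without syngeneic arrays 3 and 4 (Pdgfrb -0.24, Cspg4 -0.13, Mcam 0.17, Myh11 -0.0909, Tagln -0.0684), with the epithelial covariate (Pdgfrb -0.19, Cspg4 -0.12, Mcam 0.11, Myh11 -0.11, Tagln -0.0808) and with the endothelial covariate (Pdgfrb -0.36, Cspg4 -0.25, Mcam 0.0192, Acta2 -0.12, Myh11 -0.15, Tagln -0.16). They also turned with array weights, whose estimate did not converge (Pdgfrb -0.20, Mcam 0.36, Myh11 -0.00609), with Pecam1 alone (Pdgfrb -0.0155) and with Cdh5 alone (Mcam 0.0375). With 1 array left out Pdgfrb ran from -0.15 to 0.25, Notch3 from -0.38 to 0.30, Mcam from -0.14 to 0.10 and Des from -0.23 to 0.22. The r with Cdh5 without syngeneic arrays 3 and 4 was -0.28 for Pdgfrb, -0.00173 for Cspg4, -0.28 for Notch3 and -0.23 for Des, and that with Pecam1 was -0.37 for Pdgfrb, -0.15 for Cspg4, -0.40 for Notch3, -0.0105 for Acta2 and -0.36 for Des. The cause of these turns was not tested.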
